A study of Rattus norvegicus with 6 samples.

Results

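The spliceosome proteins, SR proteins and heterogeneous nuclear ribonucleoproteins (hnRNPs) of rat cells were described at the transcript level. The libraries were of cells after knockdown of Nqo1 and of control cells, which the study names PC12. Members were taken by name alone. They were the protein-coding rows of the count table whose symbols begin with Srsf, Hnrnp, Snrp, Sf3a, Sf3b, Prpf, Rbfox, Celf, Mbnl, Ptbp or Nova, together with U2af1, U2af2, Tra2a, Tra2b and Sf1. This gave 85 rows of 18746, carrying 84 symbols, because Hnrnpa3 was listed on chromosome 3 and again on chromosome 10. Of these, 80 passed the filter on low counts and were tested. The other 5 rows (Srsf12, Nova2, Celf6, Mbnl3 and Rbfox3) held no more than 3 reads over all libraries, with no value above 0.03 FPKM (fragments scaled for transcript length and for the number of reads mapped in the library).

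PC12 is a line derived from a rat pheochromocytoma, a tumour of the adrenal medulla. The siNQO1 group held 3 libraries of cells, named PC12 by the study, that were transfected to knock down Nqo1, which encodes a quinone reductase. The siCtrl group held 3 libraries of cells of that name given a control. The sample labels call the agents shRNA and control plasmid, while the study's methods and the column names call them siRNA, and the sources name no other treatment of either group. All cells were from 1 line and were transiently transfected in bulk, and the study calls the libraries of a group biological replicates. No source used here describes how cultures were divided among them, and the p-values measure the spread between these libraries. Nqo1 stood at 80.8, 75.2 and 77.7 FPKM in the siNQO1 libraries, against 369, 321 and 345 FPKM in the siCtrl libraries. Its log2 fold change was -2.13 ± 0.07 (SE), which left 22.6% of the siCtrl mean, and the groups did not overlap.

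Libraries held 28873824 to 39467230 reads in genes. Of the markers of chromaffin and PC12 cells, Th, Ddc, Dbh, Chga, Chgb, Phox2a and Slc18a1 reached at most 0.12 FPKM in any library, so the defining markers of the labelled line were absent or nearly so. Summed over the 12 markers matched, the level was 178 to 193 FPKM in siNQO1 and 244 to 252 FPKM in siCtrl, nearly all of it from Scg2 and Ngfr. Of the 5 tested, Scg2 alone passed, as lower in siNQO1 (log2 fold change -0.59, SE 0.06, edgeR adjusted p = 8.36e-04). Ngfr did not pass (log2 fold change -0.09, SE 0.07, edgeR adjusted p = 0.394), so the lower sum was mainly that of 1 gene. Lists of fibroblast, myeloid and glial markers summed to 53.0 to 56.5, 22.1 to 24.1 and 10.1 to 11.6 FPKM in siNQO1, against 56.2 to 56.8, 24.2 to 25.1 and 10.3 to 11.7 FPKM in siCtrl. Of the fibroblast markers, Pdgfra held most of the sum, while Pdgfrb was higher after knockdown, with 3.77 to 4.0 FPKM in siNQO1, against 2.56 to 3.16 FPKM in siCtrl (log2 fold change 0.45, SE 0.09, adjusted p = 0.0160), and the median log2 fold change of the 5 tested was 0.38. The part of these markers in the results below was not tested. In bulk libraries fewer cells of a type and less RNA per cell cannot be told apart. The siCtrl replicate 2 library stood apart from siCtrl replicates 1 and 3 in many of the members and is treated below with and without its values. It was singled out by these same values. Adjusted p-values and calls of the fit without it therefore describe its weight in the results and are no support for a difference. Mitochondrially encoded genes took 6.01% to 6.53% of reads in siNQO1, against 6.40% in siCtrl replicate 2 and 4.25% and 5.19% in siCtrl replicates 1 and 3.

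Introns are removed by the spliceosome, which is assembled on each transcript from small nuclear ribonucleoproteins (snRNPs). The U1 snRNP pairs with the 5′ splice site, Sf1 and the U2AF heterodimer mark the branch point and the 3′ splice site, and the U2 snRNP, with its SF3A and SF3B subunits, then takes the branch point before the tri-snRNP joins and catalysis begins. SR proteins mostly favour the use of an exon and hnRNPs often oppose it, while the PTBP, RBFOX, CELF, MBNL and NOVA families shift exon choice between tissues, as in the change of PTBP paralogs during the development of neurons. The study concerned splicing changes after Nqo1 knockdown, and the levels of the transcripts that encode the machinery and its regulators bear on the question of whether these regulators themselves differed. Transcript level says nothing of the activity or location of the protein.

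The members were abundant transcripts. Members tested had a median of 43.6 FPKM (mean over all 6 libraries), against 8.16 FPKM over all genes tested, and 64 of them were above 10 FPKM, 20 above 100 FPKM and 1, Celf3, below 1 FPKM. Together they took 1.11% to 1.12% of reads in siNQO1 and 1.11% to 1.17% in siCtrl. Levels per length differed by role, with the Sm and snRNP proteins (median 112 FPKM), the factors of the 3′ splice site (116 FPKM) and the hnRNPs (74.9 FPKM) high, SR proteins at 57.9 FPKM and the PRPF factors, named after yeast genes of pre-mRNA processing, at 14.8 FPKM. The tissue regulators (RBFOX, CELF, MBNL and NOVA) were low, at 3.18 FPKM, and so were the PTBP proteins, at 3.06 FPKM, apart from Ptbp1.

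**Figure D1:**
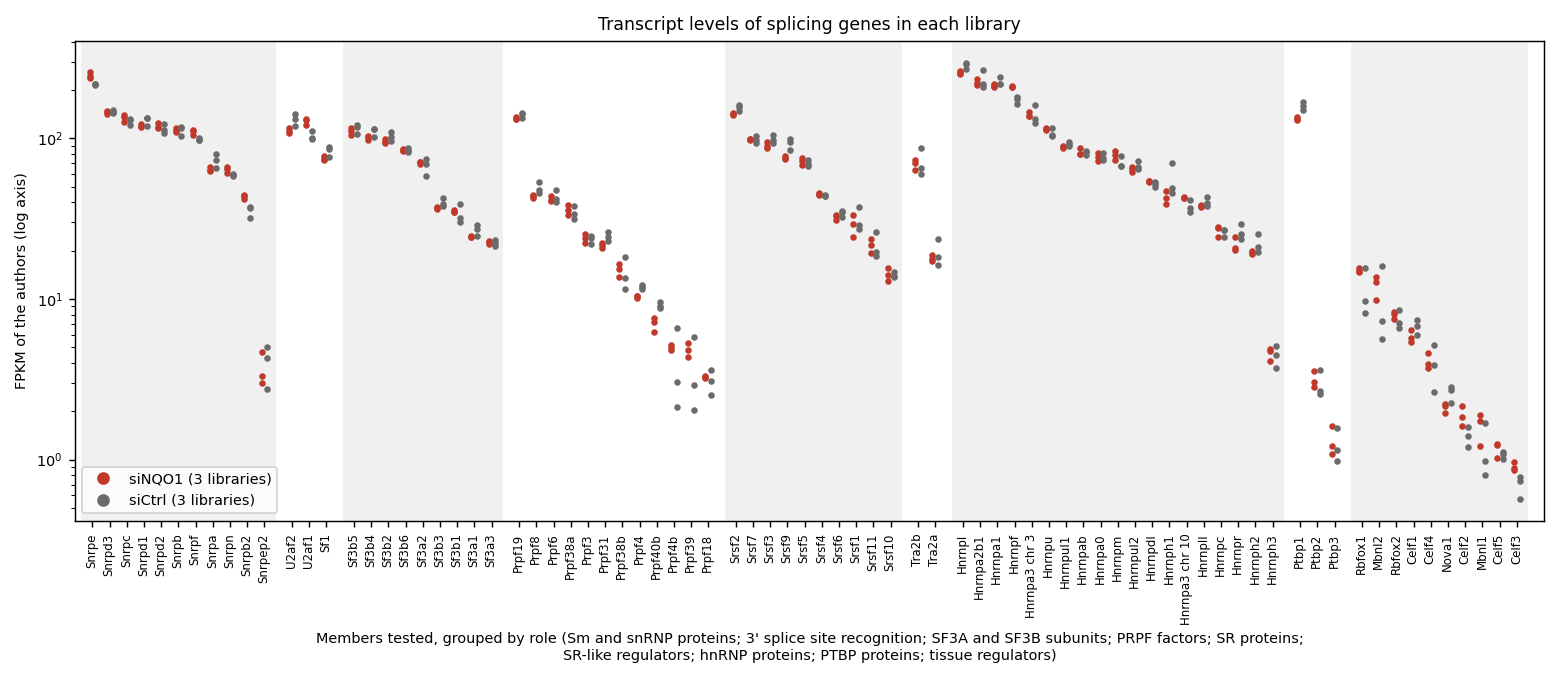
FPKM of 79 members tested (log axis) in the 3 siNQO1 libraries (red, left of each pair) and the 3 siCtrl libraries (grey, right), grouped by role and ordered by mean level within a role. Levels ran over a range with Hnrnpl at a mean of 271 FPKM at the top and Celf3 at a mean of 0.80 FPKM at the bottom, and for most members the points of the groups lay on or near each other.

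With all 6 libraries, 7 members passed the test, with log2 fold changes between -0.37 (Prpf40b) and 0.31 (U2af1). By edgeR's quasi-likelihood test with Benjamini-Hochberg adjustment over all 12420 genes tested, 4 members were higher in siNQO1 (U2af1, Snrpb2, Hnrnpf and Snrpe), where 5.27% of all genes tested were higher, and 3 were lower (Prpf40b, Srsf9 and Ptbp1), where 7.38% of all genes tested were lower. The 7 members are 8.75% of those tested, beside 12.6% of all genes tested called in either direction. The order of these shares turned when siCtrl replicate 2 was left out, as given with the counts of that fit, so nothing is read from it. In this fit no member passed the study's added threshold of a fold over 2, which 54 genes, or 0.435% of all genes tested, passed. The study reported many more genes at these thresholds from its own edgeR analysis, and its calls of the members were not examined here. At an unadjusted p under 0.05 there were 21 members (26.2%), against 29.0% of all genes tested. The median log2 fold change was 0.02 over the members and 0.01 over all genes tested. The absolute log2 fold change was under 0.2 in 60 members, or 75.0%, against 59.5% of all genes tested. Libraries of the groups did not overlap in 20 members (25.0%), 11 of them higher and 9 lower in siNQO1, against 34.2% of all genes tested.

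**Figure D2:**
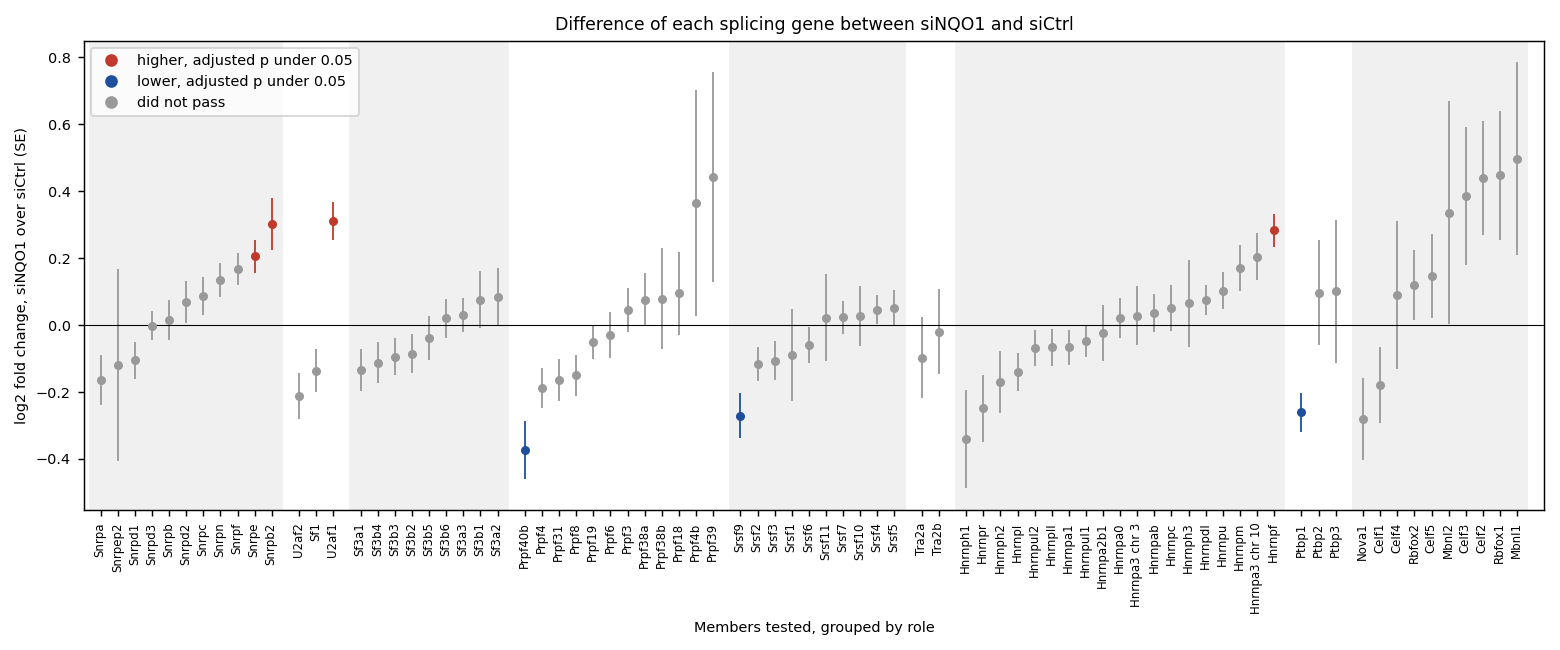
Log2 fold change of siNQO1 over siCtrl for 79 members tested, with its standard error, by role. Red points were higher and blue points lower at an adjusted p under 0.05, and the 72 in grey did not pass, including Mbnl1, with a value of 0.50 and a standard error of 0.29.

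U2af1, the small subunit of the U2AF heterodimer that contacts the AG at the 3′ splice site, was higher after knockdown. It stood at 122, 130.2 and 132 FPKM in the siNQO1 libraries, against 101, 112 and 99.4 FPKM in the siCtrl libraries (log2 fold change 0.31, SE 0.06, adjusted p = 0.0106). All 3 siNQO1 libraries were above all 3 siCtrl libraries, and siCtrl replicate 2 was the nearest of the controls. Its partners at the 3′ end of the intron had the opposite sign. U2af2, the large subunit that binds the polypyrimidine tract and was the most abundant member of this role, stood at 111, 109 and 117 FPKM in the siNQO1 libraries, against 141, 119 and 133 FPKM in the siCtrl libraries (log2 fold change -0.21, SE 0.07, adjusted p = 0.0764). The groups of U2af2 did not overlap. With all libraries it did not pass the edgeR test, while DESeq2 called it lower (adjusted p = 0.031). Sf1, which binds the branch point before the U2 snRNP does, had 73.7, 74.0 and 78.2 FPKM in the siNQO1 libraries, against 88.3, 76.4 and 86.0 FPKM in the siCtrl libraries (log2 fold change -0.14, SE 0.06, adjusted p = 0.20), with siCtrl replicate 2 inside the range of siNQO1. Without siCtrl replicate 2, U2af2 and Sf1 passed as lower, with log2 fold changes of -0.28 (adjusted p = 3.20e-04) and -0.20 (adjusted p = 0.00163). For U2af2 the adjusted p ran over 3.20e-04 to 0.204 across the alternatives, and for Sf1 over 0.00163 to 0.425.

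Among the Sm and snRNP proteins 2 of 11 members tested were higher and none was lower, beside 5.27% and 7.38% of all genes tested. The median log2 fold change was 0.07, against 0.01 over all genes tested. Snrpb2 encodes the B″ protein of the U2 snRNP, which binds a stem-loop of the U2 snRNA. It had 43.7, 44.5 and 41.9 FPKM in the siNQO1 libraries, against 31.8, 37.5 and 37.0 FPKM in the siCtrl libraries (log2 fold change 0.30, SE 0.08, adjusted p = 0.0381), and all siNQO1 libraries were above all siCtrl libraries. Snrpe, a subunit of the Sm ring around the snRNAs and the most abundant of this role, had 239, 259 and 246 FPKM in the siNQO1 libraries, against 216, 218 and 217 FPKM in the siCtrl libraries (log2 fold change 0.20, SE 0.05, adjusted p = 0.0293), again with no overlap. The Snrpe row is uncertain, because it lies on chromosome 8 in the files, where RefSeq names a pseudogene of Snrpe, while RefSeq places Snrpe itself on another chromosome, and near-identical copies may take or share reads. Snrpb, which encodes the B and B′ proteins of the same ring, did not pass, at 111, 110.4 and 116 FPKM in the siNQO1 libraries, against 118, 104 and 116 FPKM in the siCtrl libraries (log2 fold change 0.01, SE 0.06, adjusted p = 0.901). The Sm proteins Snrpf and Snrpn had groups that did not overlap but did not pass (0.17, adjusted p = 0.0527, and 0.13, adjusted p = 0.123, on the log2 scale). The 11 members ran between log2 fold changes of -0.16 (Snrpa, the U1 snRNP protein A) and 0.30 (Snrpb2).

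With all 6 libraries none of the 9 SF3A and SF3B subunits passed the edgeR test, 0 had an unadjusted p under 0.05, and DESeq2 and limma also called 0. Of all genes tested, 12.6% passed the edgeR test and 29.0% had an unadjusted p under 0.05. Without siCtrl replicate 2, Sf3b1 passed as higher (edgeR adjusted p = 0.00703). In that fit Sf3a1, Sf3b2, Sf3b3 and Sf3b4 passed as lower (adjusted p between 0.00298 and 0.0283). These are 1 higher and 4 lower of 9, beside 17.2% and 16.1% of all genes tested in that fit. With all 6 libraries, all 9 had an absolute log2 fold change under 0.2, as did 59.5% of all genes tested. Sf3b5, a small subunit of SF3B and the most abundant of them, had 105, 111 and 116 FPKM in the siNQO1 libraries, against 120.4, 106 and 118 FPKM in the siCtrl libraries (log2 fold change -0.04, SE 0.07, adjusted p = 0.745), and the groups overlapped. Sf3b1, the large subunit that holds the branch helix, had 34.7, 35.8 and 35.1 FPKM in the siNQO1 libraries, against 30.1, 39 and 32.0 FPKM in the siCtrl libraries (log2 fold change 0.08, SE 0.09, adjusted p = 0.603). Here the highest and the lowest values were both from siCtrl, and siCtrl replicate 2 was the highest library.

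The PRPF factors held 1 lower member and no higher one among 13 tested, beside 7.38% and 5.27% of all genes tested. Prpf40b, a WW-domain protein related to a yeast component of the U1 snRNP, was lower, with 7.16, 6.27 and 7.58 FPKM in the siNQO1 libraries, against 8.82, 9.08 and 9.57 FPKM in the siCtrl libraries (log2 fold change -0.37, SE 0.09, adjusted p = 0.0268). Its groups did not overlap. Prpf19, the ubiquitin ligase at the core of the complex that bears its name and the most abundant of the PRPF factors, had 132, 133 and 136 FPKM in the siNQO1 libraries, against 144, 133 and 142 FPKM in the siCtrl libraries (log2 fold change -0.05, SE 0.05, adjusted p = 0.544). Prpf8, the protein of the U5 snRNP that forms the cavity of the catalytic centre, had 42.6, 43.9 and 44.5 FPKM in the siNQO1 libraries, against 53.3, 45.8 and 47.8 FPKM in the siCtrl libraries (log2 fold change -0.15, SE 0.06, adjusted p = 0.143). For Prpf8 all siNQO1 libraries were below all siCtrl libraries, without passing the test with all libraries. Without siCtrl replicate 2, Prpf8 passed as lower (log2 fold change -0.20, edgeR adjusted p = 0.0032).

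Of the 10 SR proteins tested, Srsf9 alone passed, beside 12.6% of all genes tested. An absolute log2 fold change under 0.2 was found in 9 of 10, beside 59.5% of all genes tested. Srsf9, an SR protein with a short RS domain, was lower, with 75.9, 74.8 and 78.0 FPKM in the siNQO1 libraries, against 99.2, 84.2 and 95.2 FPKM in the siCtrl libraries (log2 fold change -0.27, SE 0.07, adjusted p = 0.0336). The lowest control, siCtrl replicate 2, was still above every siNQO1 library. Srsf2, which recognises exonic enhancers and was the most abundant SR protein, had 145, 139 and 142 FPKM in the siNQO1 libraries, against 149, 161 and 157 FPKM in the siCtrl libraries (log2 fold change -0.12, SE 0.05, adjusted p = 0.174), with no overlap. Srsf3, the smallest of the classical SR proteins, had 95.3, 89.7 and 87.6 FPKM in the siNQO1 libraries, against 97.8, 105 and 93.6 FPKM in the siCtrl libraries (log2 fold change -0.11, SE 0.06, adjusted p = 0.268). Srsf1, the founding member of the family, spread more widely, with 33.3, 29.3 and 24.5 FPKM in the siNQO1 libraries, against 27.4, 37.4 and 28.8 FPKM in the siCtrl libraries (log2 fold change -0.09, SE 0.14, adjusted p = 0.707). Its siNQO1 values lay on both sides of siCtrl replicates 1 and 3, and siCtrl replicate 2 was the highest of the 6 libraries. Tra2b, an SR-like activator with RS domains on either side of its RNA-binding domain, had 73.7, 70.5 and 63.8 FPKM in the siNQO1 libraries, against 60.0, 87.5 and 65.5 FPKM in the siCtrl libraries (log2 fold change -0.02, SE 0.13, adjusted p = 0.935), and both the lowest and the highest library were controls.

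Hnrnpf was the sole hnRNP of 19 tested to pass, beside 12.6% of all genes tested, and it had the smallest adjusted p of all members. It binds runs of G in RNA. Its level was 210.2, 208 and 211 FPKM in the siNQO1 libraries, against 176, 181 and 165 FPKM in the siCtrl libraries (log2 fold change 0.28, SE 0.05, adjusted p = 0.00805), with siNQO1 libraries close together and above every control. Of its relatives that bind the same kind of sequence, Hnrnph1 and Hnrnph2 had the opposite sign and Hnrnph3 the same sign (log2 fold change 0.07, adjusted p = 0.780). Hnrnph1 had 47.1, 42.9 and 39.3 FPKM in siNQO1, against 46.0, 70.2 and 49.1 FPKM in siCtrl (log2 fold change -0.34, SE 0.15, adjusted p = 0.165), and Hnrnph2 had a log2 fold change of -0.17 (adjusted p = 0.262). None of these 3 passed, and they were named after their values were seen. Without siCtrl replicate 2, the highest library of Hnrnph1 and Hnrnph2, their log2 fold changes were nearer to 0, at -0.14 for Hnrnph1 (adjusted p = 0.168) and -0.06 for Hnrnph2 (adjusted p = 0.496). Hnrnpl, which binds CA-rich RNA and was the most abundant member of all, had 262, 252 and 257 FPKM in the siNQO1 libraries, against 297, 269 and 292 FPKM in the siCtrl libraries (log2 fold change -0.14, SE 0.06, adjusted p = 0.139). All siNQO1 libraries of Hnrnpl were below all controls, and without siCtrl replicate 2 it passed as lower (log2 fold change -0.19, edgeR adjusted p = 0.00135). Hnrnpa1, a repressor of exons that often opposes Srsf1, had 209.6, 218 and 212 FPKM in the siNQO1 libraries, against 218, 241 and 217 FPKM in the siCtrl libraries (log2 fold change -0.07, SE 0.05, adjusted p = 0.450). Hnrnpa2b1, its close relative, had 215, 236 and 223 FPKM in the siNQO1 libraries, against 218, 265 and 209 FPKM in the siCtrl libraries (log2 fold change -0.02, SE 0.08, adjusted p = 0.873). In both, siCtrl replicate 2 was the highest library. Hnrnpc, which binds runs of U, had 24.3, 28.1 and 27.5 FPKM in the siNQO1 libraries, against 26.9, 26.7 and 24.3 FPKM in the siCtrl libraries (log2 fold change 0.05, SE 0.07, adjusted p = 0.672), with every control inside the range of siNQO1. Of the 2 rows named Hnrnpa3, that of chromosome 3 had 141 ± 4.90 FPKM in siNQO1 and 139.5 ± 19.9 FPKM in siCtrl (SD, n = 3 each), and that of chromosome 10 had 42.9 ± 0.346 FPKM in siNQO1 and 37.6 ± 3.19 FPKM in siCtrl (SD, n = 3 each). RefSeq gives Hnrnpa3 on chromosome 3 and not on chromosome 10, so the second row may hold reads of a copy, and neither row passed.

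Ptbp1, which binds polypyrimidine tracts and represses neuronal exons in cells other than neurons, was lower after knockdown, with 131, 129.8 and 135 FPKM in the siNQO1 libraries, against 169.6, 149 and 160.1 FPKM in the siCtrl libraries (log2 fold change -0.26, SE 0.06, adjusted p = 0.0216). All siNQO1 libraries lay below all siCtrl libraries. Ptbp2, the paralog that replaces Ptbp1 as neurons develop, was scarce, at 2.85, 3.54 and 3.05 FPKM in the siNQO1 libraries, against 2.58, 3.64 and 2.68 FPKM in the siCtrl libraries (log2 fold change 0.10, SE 0.16, adjusted p = 0.726), and its groups overlapped. The FPKM ratio of Ptbp2 to Ptbp1 within each library was 0.0217, 0.0273 and 0.0226 in siNQO1, against 0.0152, 0.0244 and 0.0167 in siCtrl. The mean log2 ratio was higher in siNQO1 by 0.37 (exact two-sided permutation p = 0.3, adjusted p = 0.4 over 4 ratios), and siCtrl replicate 2 lay within the siNQO1 values. With each library left out in turn this difference ran between 0.23 (without siCtrl replicate 1) and 0.57 (without siCtrl replicate 2). With 3 libraries against 3, the smallest p this exact test can give is 0.1. The ratio of Celf2 to Celf1 was 0.249, 0.401 and 0.324 in siNQO1, against 0.215, 0.209 and 0.20 in siCtrl (log2 difference 0.62, exact two-sided permutation p = 0.1, adjusted p = 0.4). These groups did not overlap, and the difference ran between 0.45 and 0.79 with each library left out. Celf2 held 79 to 137 reads per library. For all 4 ratios, leaving out libraries was chosen after seeing the data. For Snrpn to Snrpb the log2 difference was 0.12, or 0.08 to 0.16 with each library left out (exact permutation p = 0.2, adjusted p = 0.4), and for Mbnl2 to Mbnl1 it was -0.07 (exact permutation p = 0.9, adjusted p = 0.9).

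**Figure D3:**
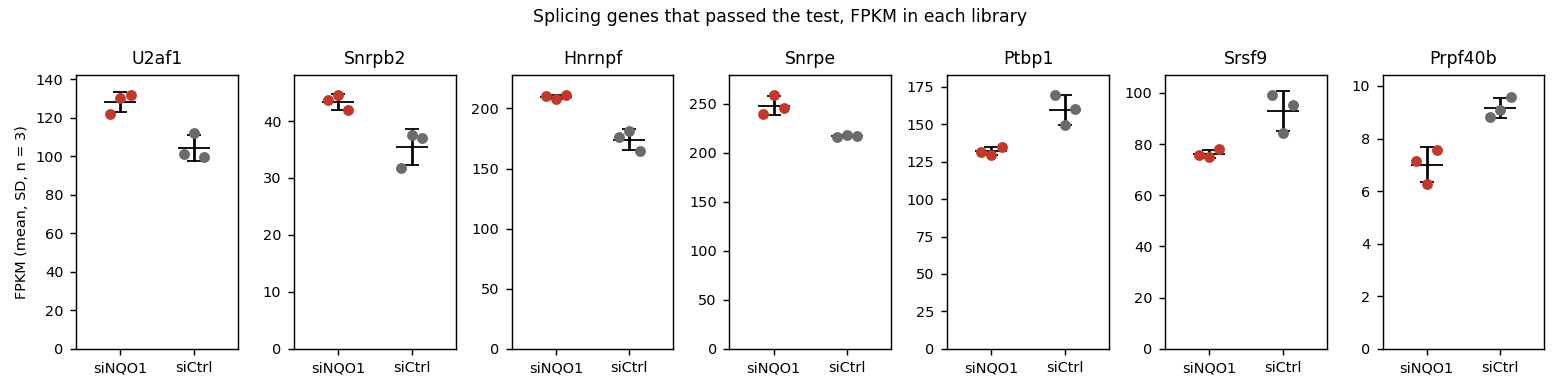
FPKM of the 7 members that passed the test, in the siNQO1 libraries (red, left) and the siCtrl libraries (grey, right), with the mean and SD of 3 libraries and axes that start at 0. U2af1, Snrpb2, Hnrnpf and Snrpe were higher and Ptbp1, Srsf9 and Prpf40b lower in siNQO1, with no overlap between groups and with siNQO1 means of 128 against 104 FPKM for U2af1 and 132 against 159.7 FPKM for Ptbp1.

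With all 6 libraries no tissue regulator passed the edgeR test among the 10 tested, beside 12.6% of all genes tested, and DESeq2 and limma also called 0. An unadjusted p under 0.05 was found in 3 of them, beside 29.0% of all genes tested. Without siCtrl replicate 2, 3 passed as higher (Rbfox1, Mbnl1 and Mbnl2, given below), beside 17.2% of all genes tested in that fit, and 0 as lower, beside 16.1%. Over the 10 tissue regulators tested, the median log2 fold change with all libraries was 0.24 and 8 of 10 were positive, beside a median of 0.01 over all genes tested. Rbfox1, which binds UGCAUG and was the most abundant of them, had 15.6, 14.6 and 15.04 FPKM in the siNQO1 libraries, against 8.21, 15.5 and 9.78 FPKM in the siCtrl libraries (log2 fold change 0.45, SE 0.19, adjusted p = 0.167). In siCtrl replicate 2 it was level with siNQO1, and in the other controls it was lower. Rbfox2, its more broadly expressed paralog, had 7.56, 8.33 and 8.02 FPKM in the siNQO1 libraries, against 8.58, 7.08 and 6.59 FPKM in the siCtrl libraries (log2 fold change 0.12, SE 0.11, adjusted p = 0.497). Celf1, which binds GU-rich RNA, had 6.46, 5.39 and 5.71 FPKM in the siNQO1 libraries, against 7.41, 6.75 and 5.95 FPKM in the siCtrl libraries (log2 fold change -0.18, SE 0.11, adjusted p = 0.332). Mbnl1, the muscleblind protein that is sequestered by CUG repeats in myotonic dystrophy, was low, at 1.90, 1.22 and 1.74 FPKM in the siNQO1 libraries, against 0.980, 1.70 and 0.800 FPKM in the siCtrl libraries (log2 fold change 0.50, SE 0.29, adjusted p = 0.293). In Mbnl1 the siCtrl replicate 2 library was within the siNQO1 values and the other controls were below them. Of the same families, Rbfox3, Nova2, Celf6 and Mbnl3 were among the 5 rows at or near 0. Celf4, Celf5 and Celf3 had means of 3.998, 1.12 and 0.80 FPKM over all 6 libraries. Nova1 had 2.12 ± 0.147 FPKM in siNQO1 and 2.59 ± 0.314 FPKM in siCtrl (SD, n = 3 each).

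The calls of the 7 members turned on which libraries were used. Each kept its sign when any 1 library was left out, but lost its call in at least 3 of these 6 fits, with the highest adjusted p between 0.0580 (Hnrnpf) and 0.174 (Snrpb2). When siCtrl replicate 2 was left out, all 7 passed, and the members called were 17 higher (17.2% of all 12615 genes tested in that fit were higher) and 14 lower (16.1% of all genes were lower). Because that library was singled out by these same values, the calls of this fit are no support for a difference. In either direction this is 31 members, or 38.8%, beside 33.3% of all genes tested in that fit. Leaving out any other library called at most 1 member higher and 2 lower, and the counts over all genes fell as well, to between 167 and 346 higher and between 351 and 662 lower, against 654 and 917 with all libraries.

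This control lay nearer to the siNQO1 libraries than to its own group in many members. Its level in 54 of 80 members (67.5%) was nearer to the mean of siNQO1 than to that of the other 2 controls, beside 52.2% of all genes tested, and the next such share was that of siNQO1 replicate 1, nearer to siCtrl in 36.2% of members. In 22 members (27.5%, against 18.8% of all genes tested) siCtrl replicate 2 and every siNQO1 library were above siCtrl replicates 1 and 3, and in 16 (20.0%, against 21.0%) all were below. It was the highest of the 6 libraries in 26 members (32.5%, against 18.1%) and the lowest in 10 (12.5%, against 23.6%). The spread followed, with a median SD of log2 CPM (counts scaled to library size) of 0.05 in siNQO1 and 0.11 in siCtrl over the members, and 0.08 in siNQO1 and 0.13 in siCtrl over all genes tested. These patterns were chosen after the values were seen, and what set this library apart was not tested.

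Members with a large log2 fold change without siCtrl replicate 2 show the pattern. Prpf39, related to a yeast U1 snRNP protein, had 4.84, 5.29 and 4.38 FPKM in the siNQO1 libraries, against 2.04, 5.80 and 2.90 FPKM in the siCtrl libraries (log2 fold change 0.44, SE 0.31, adjusted p = 0.392). Without siCtrl replicate 2 the log2 fold change of Prpf39 was 0.96 (adjusted p = 4.08e-04), the adjusted p running over 4.08e-04 to 0.785 across the alternatives. Prpf4b, a kinase that phosphorylates the tri-snRNP, had 5.16, 5.06 and 4.84 FPKM in the siNQO1 libraries, against 2.13, 6.63 and 3.04 FPKM in the siCtrl libraries (log2 fold change 0.36, SE 0.34, adjusted p = 0.519). Without siCtrl replicate 2 the log2 fold change of Prpf4b was 0.96 (adjusted p = 1.39e-04), with a range of 1.39e-04 to 0.935. In Prpf39 and Prpf4b siCtrl replicate 2 was above, and the other controls below, all siNQO1 libraries. Mbnl2, the muscleblind paralog that predominates in brain, had 13.7, 12.7 and 9.83 FPKM in the siNQO1 libraries, against 5.64, 16.1 and 7.25 FPKM in the siCtrl libraries (log2 fold change 0.34, SE 0.33, adjusted p = 0.548). Without siCtrl replicate 2 the log2 fold change of Mbnl2 was 0.91 (adjusted p = 3.15e-04), with a range of 3.15e-04 to 0.946. For Rbfox1 and Mbnl1, given above, the log2 fold changes without that library were 0.75 (adjusted p = 1.77e-05) and 0.89 (adjusted p = 0.0138), with ranges of 1.77e-05 to 0.423 and 0.0138 to 0.596.

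**Figure D4:**
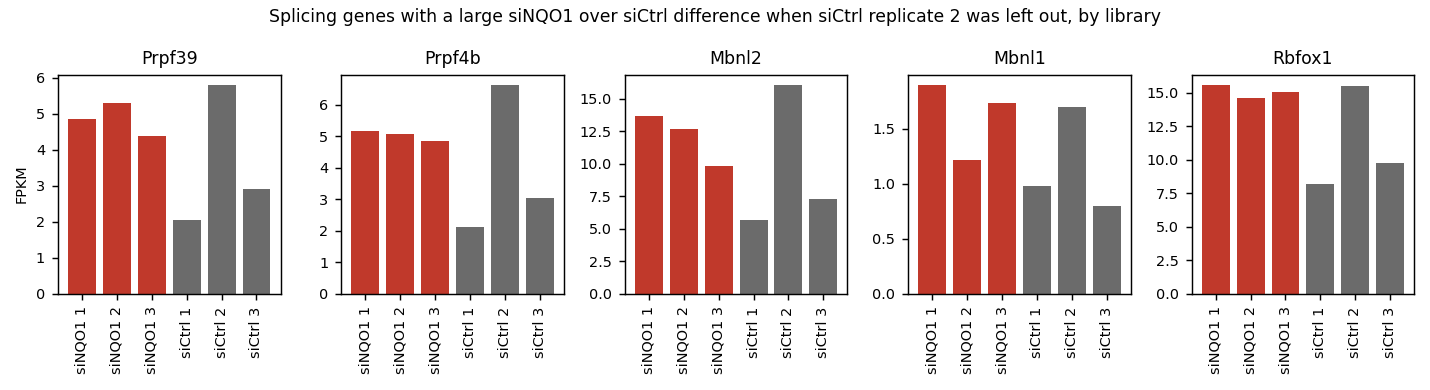
FPKM by library of 5 members with a large log2 fold change when siCtrl replicate 2 was left out, with siNQO1 replicates 1 to 3 in red and siCtrl replicates 1 to 3 in grey, on axes that start at 0. In each, siCtrl replicate 2 stands with the siNQO1 libraries or above them, as for Prpf39 at 5.80 FPKM, against 2.04 and 2.90 FPKM in siCtrl replicates 1 and 3.

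**Figure D5:**
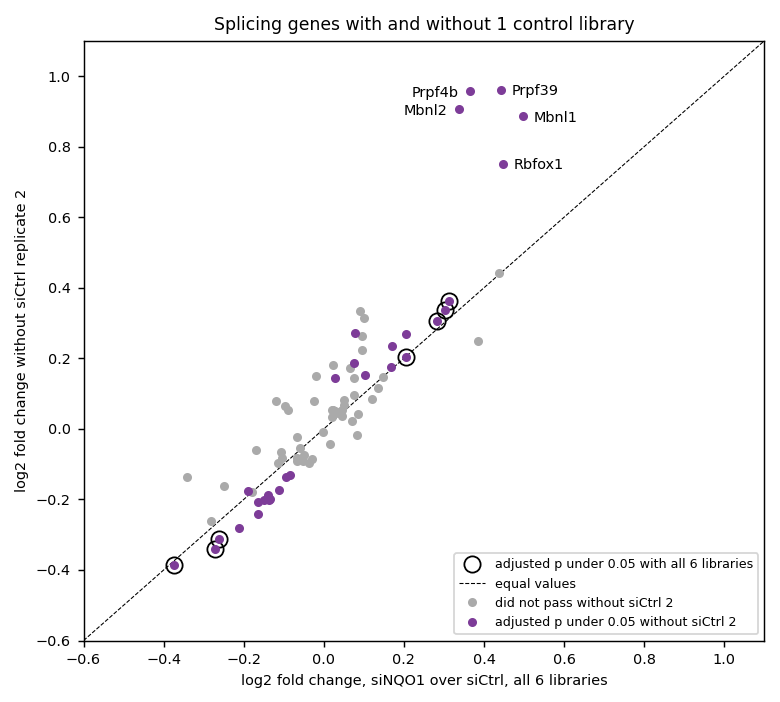
Log2 fold change of siNQO1 over siCtrl for 79 members tested, with all 6 libraries (x axis) and without siCtrl replicate 2 (y axis). Purple points passed without that library (30 of those drawn), circles mark the 7 that passed with all libraries, and the dashed line marks equal values. The 5 labelled members lie above the line, as Prpf39 does at 0.44 with all libraries and 0.96 without.

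Summed levels by role differed in the same library. Tissue regulators summed to 54.7, 52.6 and 51.2 FPKM in siNQO1, against 39.1, 58.0 and 40.2 FPKM in siCtrl. Tra2a and Tra2b together had 92.6, 88.3 and 80.9 FPKM in siNQO1, against 78.2, 111 and 81.9 FPKM in siCtrl. For hnRNPs the sums were 1787, 1821 and 1797 FPKM in siNQO1, against 1783, 1923 and 1742 FPKM in siCtrl. In each of these 3 roles the highest library was siCtrl replicate 2. The same library was highest for PRPF factors, at 374 FPKM beside 373 FPKM in siCtrl replicate 1, and for SR proteins. SR proteins summed to 631, 619.8 and 617 FPKM in siNQO1, against 653, 683 and 645 FPKM in siCtrl, a difference that was not tested. The Sm and snRNP proteins, with 1135, 1177 and 1181 FPKM in siNQO1, against 1135, 1099 and 1123 FPKM in siCtrl, had siCtrl replicate 2 as the lowest.

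Other genes of splicing were read from 4 lists, of further snRNP and Sm-like proteins, of the Prp19 complex, catalytic step and exon junction, of the kinases of SR proteins, and of other regulators. These held 150 genes tested, of which 5 were higher and 10 lower, or 10.0%, beside 12.6% of all genes tested. Of 37 further snRNP and Sm-like genes tested, 1 was higher, beside 5.27% of all genes tested, and 6 were lower, beside 7.38%. The balance of signs in this list was not tested. Snrnp48, Snrnp25 and Pdcd7 encode proteins of the U11/U12 snRNP of the minor spliceosome and did not share a sign. Snrnp48 had 14.1, 14.8 and 12.6 FPKM in the siNQO1 libraries, against 6.81, 10.6 and 7.55 FPKM in the siCtrl libraries (log2 fold change 0.75, SE 0.16, adjusted p = 0.0205). Pdcd7 had 5.45, 5.36 and 6.37 FPKM in siNQO1, against 8.19, 7.84 and 8.27 FPKM in siCtrl (log2 fold change -0.49, SE 0.09, adjusted p = 0.0127), and Snrnp25 had a log2 fold change of -0.26 (adjusted p = 0.0375). Cd2bp2, a protein of the U5 snRNP, was lower, with 19.6, 18.9 and 18.2 FPKM in siNQO1, against 25.8, 25.5 and 25.2 FPKM in siCtrl (log2 fold change -0.42, SE 0.05, adjusted p = 0.00261). Usp39, of the tri-snRNP, and Sart3, which recycles the U4 and U6 snRNPs, were also lower (-0.29, adjusted p = 0.0208, and -0.25, adjusted p = 0.0207).

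In the list of the catalytic step, Dhx8, the helicase that releases the spliced mRNA, was lower (-0.34 on the log2 scale, adjusted p = 0.0120), as was the coactivator Srrm1 (-0.22, adjusted p = 0.0217), and Syf2 was higher (0.22, adjusted p = 0.0311). Among 54 other regulators tested, Pcbp2, a poly(C)-binding protein, was higher, with 304, 298 and 307 FPKM in siNQO1, against 264, 237 and 248 FPKM in siCtrl (log2 fold change 0.29, SE 0.05, adjusted p = 0.0106). Rbm38 and the paraspeckle protein Nono were higher too (0.28, adjusted p = 0.0416, and 0.17, adjusted p = 0.0471), while Cirbp, the cold-inducible RNA-binding protein, was lower (-0.34, adjusted p = 0.0182). None of the 6 SR protein kinases tested passed the edgeR test, while DESeq2 called 2 and limma 0. By edgeR, 2 had an unadjusted p under 0.05, beside 29.0% of all genes tested. Clk1, a kinase that phosphorylates SR proteins in the nucleus, was chosen after its values were seen. It had 38.1, 40.2 and 38.6 FPKM in siNQO1, against 26.2, 39.7 and 27.2 FPKM in siCtrl (log2 fold change 0.34, SE 0.14, adjusted p = 0.142), with siCtrl replicate 2 again level with siNQO1. Clk4, also chosen after its values were seen, had the largest change of these kinases. It had 9.69, 8.01 and 7.97 FPKM in siNQO1, against 4.13, 7.48 and 4.82 FPKM in siCtrl (log2 fold change 0.65, SE 0.21, edgeR adjusted p = 0.0715), with no overlap. Of the 15 genes called in the lists, Cd2bp2 and Pcbp2 passed in every fit with 1 library left out (highest adjusted p = 0.0216 and 0.0466), and none of the others did. Without siCtrl replicate 2 the lists held 39 genes higher and 25 lower, or 42.7%, beside 33.3% of all genes tested in that fit, so here too the order of the shares turned.

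The stretches of promoter are shown to compare members that rose with members that fell. The 250 bases upstream of the RefSeq start in the GRCr8 build were taken for 72 of 85 members, and letters were searched on both strands. Genes were matched by Ensembl identifier or else by symbol, and a member was kept only where the chromosome was the same. The share of windows holding each motif was 51.4% of members for CCAAT (36.1% of genes tested with a window), 19.4% for TGCGCA (12.4%), 19.4% for CCGGAAG (15.6%), 58.3% for GGGCGG (59.8%) and 5.56% for TATAAA (6.0%). Median GC content was 58.4% for members and 60.4% for genes tested. Of the 6 members called that have a window, CCAAT was in those of U2af1, Hnrnpf and Ptbp1, of which the pair U2af1 and Hnrnpf was higher and Ptbp1 lower. The stretches below show CCAAT matches of these members and the TGCGCA matches of Snrpb2 (higher) and Srsf9 (lower). They run 5′ to 3′ on the strand of the gene, with each match in capitals. The window of Ptbp1 held 3 CCAAT matches, and only the match farthest upstream is shown. TGCGCA is its own reverse complement. For U2af1 the letters are the reverse complement, ATTGG.
U2af1, chr20:9755142-9755171, minus strand of GRCr8: gcgcctttctcaATTGGacagaacttctac
Hnrnpf, chr4:152755545-152755574, plus strand of GRCr8: tcgtccccctggCCAATcctgggctccgtt
Ptbp1, chr7:10503123-10503152, minus strand of GRCr8: cggccgtacagtCCAATagccgactagtgt
Snrpb2, chr3:150852680-150852709, plus strand of GRCr8: aggctacgggaaTGCGCATGCGCAgaaaga
Srsf9, chr12:46945275-46945304, minus strand of GRCr8: gagactggccctTGCGCAcgcgcacctcgc
The same letters, CCAAT or TGCGCA, thus stood before members that differed in opposite directions. GGGCGG was likewise in the windows of U2af1 and Hnrnpf (higher) and Srsf9 (lower). CCGGAAG, whose stretches are not printed, was in 2 of the 6 windows, those of Snrpb2 and Hnrnpf, both higher. A link between letters and direction was not tested. A match is a run of letters and not a shown binding site.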

How the data were processed

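Polyadenylated RNA of cells that the study names PC12 was sequenced in 6 libraries, 3 of siNQO1 and 3 of siCtrl. According to the study's methods, reads were trimmed with the FASTX-Toolkit and aligned to the RGSC6 genome with TopHat2, and uniquely mapped reads were used. Among the tools in the submitters' processing notes are bcl2fastq and edgeR. The deposited counts are whole reads per gene, not normalized. The authors scaled the FPKM values for transcript length and mapped reads, so they can be set side by side between genes. How reads were counted, and whether by strand, is not given in the sources used here, and overlapping genes and near-identical copies may share reads.

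Counts (28873824 to 39467230 reads per library) were fitted by the quasi-likelihood method of edgeR 4.0.16 (R 4.3.3; glmQLFit, glmQLFTest) after filterByExpr and TMM scaling, with the group as the sole term. Benjamini-Hochberg adjustment ran over 12420 genes. A call is an adjusted p under 0.05. Over all genes the biological coefficient of variation came to 0.109. Log2 CPM used a prior count of 2. Alternatives were other scalings, no filter, DESeq2 1.42.0, limma 3.58.1 (voom, and log2 FPKM with pseudocounts of 1 and 0.1), a replicate block and each library left out.

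Members and lists were chosen with earlier results of these data known. Per-library values are given for every member called, the most abundant of each role and 18 textbook regulators, and list genes named are up to 6 called per list by size. RefSeq (GRCr8) supplied promoters and gene names, matched by Ensembl identifier or else by symbol. No genome of the files' build was used. Splice junctions were not analysed here. Some genes counted in the totals are not reported by name here or drawn in the figures.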

Additional observations from a re-analysis of the deposited data

How the results depend on the processing

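Members called were 4 higher and 3 lower. Upper-quartile scaling gave 5 and 3 and DESeq2 4 and 4, and every other scaling, the unfiltered fit and the limma fits gave 4 and 3. With each library left out in turn, members higher ran between 0 and 17 and members lower between 0 and 14, the top of each range being the fit without siCtrl replicate 2. In the 4 lists of other splicing genes 5 were higher and 10 lower. The number higher was 12 with no filter, 14 by DESeq2 and 8 by limma voom, and with each library left out it ran between 1 and 39, with 2 to 25 lower. The cause was not tested.

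No same-numbered pairs were given as such by the labels, and the deviations of libraries with the same number correlated at -0.04, 0.16 and 0.06, so the numbers were not taken to pair the samples. With the replicate number as a block, 2 members were higher (Snrpb2 and Snrpe no longer passed) and 3 lower, and in the other splicing lists 9 were higher and 8 lower.

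Signs of small differences turned with 1 library left out, in no case with an adjusted p under 0.05 by edgeR. The log2 fold change ran between -0.087 and 0.080 for Hnrnpa2b1, -0.002 and 0.092 for Hnrnpc, -0.015 and 0.26 for Ptbp2, -0.020 and 0.19 for Sf3b1, -0.044 and 0.045 for Snrpb, -0.22 and 0.054 for Srsf1 and -0.15 and 0.15 for Tra2b, and the log2 difference in the ratio of Mbnl2 to Mbnl1 between -0.31 and 0.13. For all 4 ratios of paralogs, leaving out libraries was chosen after seeing the data. Other scalings moved the median of all genes by less than 0.02 on the log2 scale. Members with few reads, such as Celf3 and Mbnl1, had standard errors of 0.21 and 0.29 on that scale.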
